A study of Mus musculus with 6 samples.

Results

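Cytosolic ribosomal proteins are the protein part of the ribosome that translates messenger RNA in the cytoplasm. Each is encoded by its own gene and assembles with ribosomal RNA into a large subunit, whose proteins have names beginning with Rpl, or a small subunit, whose proteins have names beginning with Rps. The transcripts are among the most abundant of a dividing cell, many begin with a terminal oligopyrimidine tract through which mTOR and Larp1 control their translation, and most genes of the family have left processed pseudogenes (copies made by reverse transcription of the messenger RNA) elsewhere in the mouse genome. In the early cortex, where radial glia divide and give rise to neurons, ribosome production is known to be high in progenitors.

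The genes were chosen by name: protein-coding genes of the GENCODE M21 mouse annotation whose symbol begins with Rpl or Rps and a digit, or is Rpsa, Rplp0, Rplp1 or Rplp2, without the Rps6k kinases and without symbols holding -ps. The annotation holds 86 such genes, and 80 of them had a row among the 17068 genes of the count table. Of the 80, 44 encode large-subunit proteins, 31 encode small-subunit proteins, 4 are paralogues (Rpl7l1, Rpl22l1, Rps27l and Rps27rt) and 1, Rps19bp1, encodes a nucleolar partner of Rps19 that is no ribosomal protein. Rpl13, Rpl24, Rpl3l, Rpl10l, Rpl36al and Rpl39l had no row and are not analysed here. Identifiers matched with their version number for 70 of the 80 genes and without it for the other 10.

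RNA from the lateral cortex of female c57/bl6 embryos at embryonic day (E)12.5 was sequenced in bulk, in 6 libraries. The 4 controls carried no Cre: controls 1, 2 and 4 were Foxp1 fl/+ and control 3 was Foxp1 fl/fl. The 2 libraries labelled Foxp1cKO came from Foxp1 fl/fl embryos with Emx1Cre, which drives recombination in progenitors of the dorsal telencephalon and leaves other cells of the dissected tissue unrecombined. All 6 libraries therefore carried at least 1 floxed Foxp1 allele, and no label names a source for the embryos beyond the sample, so p-values measure the spread between these libraries.

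Libraries held between 50076008 and 78346979 counts. Foxp1, the targeted gene, stood at 59.7, 60.8, 71.2 and 79.1 counts per 1000000 (CPM, scaled by TMM) in controls 1 to 4 and at 83.2 and 76.8 CPM in Foxp1cKO 1 and 2. Counted over the whole gene, it showed no loss in the Foxp1cKO pair (log2 fold change 0.24, SE 0.13, edgeR quasi-likelihood test, Benjamini-Hochberg adjusted p = 0.47), and counts over a whole gene do not show whether the floxed exons are present. Dorsal telencephalon markers (Emx1, Emx2, Pax6 and Lhx2) were present in every library, with mean levels between 6.73 and 7.80 log2 CPM. Control 3 stood apart: its ventral telencephalon markers (Dlx1, Dlx2, Dlx5, Gad1, Gad2 and Lhx6) averaged 6.76 log2 CPM against 4.89 to 5.56 in the other controls and 5.999 and 5.53 in Foxp1cKO 1 and 2.

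The starts of the genes show a feature that the names did not use. RefSeq promoters of the GRCm38.p6 build, covering 250 bases before to 50 bases after each annotated start, were matched by symbol for 60 of the 80 genes. A C followed by at least 4 pyrimidines lay exactly at an annotated start of 14 of these genes (23.3%), against 3.01% of 27025 genes of all kinds. Allowing 5 bases to either side, 30 of 60 (50%) held it, against 21.2% of all genes. The sequences below run from 15 bases before to 15 bases after the start in the direction of transcription, and the capitals mark the pyrimidine run that begins at the annotated start. They are shown for subunits of both kinds, for Rps27 and its copy Rps27rt, and for Rps3a1, the gene with the lowest fold change. The annotated start of Rps3a1 is a single C followed by a G. Starts were not measured here, so the lack of a run at an annotated start does not show that a transcript lacks the tract.

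Rps6 (chr4:86857353-86857382, minus strand): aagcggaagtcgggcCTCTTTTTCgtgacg
Rps10 (chr17:27635230-27635259, minus strand): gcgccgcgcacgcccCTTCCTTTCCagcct
Rps18 (chr17:33955651-33955680, minus strand): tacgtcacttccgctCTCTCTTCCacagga
Rpl15 (chr14:18270972-18271001, minus strand): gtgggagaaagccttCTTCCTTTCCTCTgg
Rpl28 (chr7:4792950-4792979, plus strand): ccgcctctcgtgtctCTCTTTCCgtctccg
Rpl35a (chr16:33056467-33056496, plus strand): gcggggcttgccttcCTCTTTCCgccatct
Rplp2 (chr7:141447636-141447665, plus strand): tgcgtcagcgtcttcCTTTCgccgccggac
Rps27 (chr3:90213634-90213663, minus strand): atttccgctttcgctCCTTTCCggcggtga
Rps27rt (chr9:114982725-114982754, minus strand): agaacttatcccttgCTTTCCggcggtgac
Rps3a1 (chr3:86142654-86142683, minus strand): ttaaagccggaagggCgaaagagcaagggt

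Within the whole 300 bases, on either strand, CTTTCC stood in 53.3% of the 60 genes' promoters against 29.3% of all genes, CCGGAAGT, the core of the ETS-type motif, in 20% against 4.31%, and the E-box CACGTG in 10% against 8.09%. CTTTCC can overlap the pyrimidine run at the start. Such matches describe letters and show no bound factor. The 14 genes with the run exactly at the start had a median log2 fold change of 0.11, and the 46 without it a median of 0.047.

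Whether loss of Foxp1 changed the level of the ribosomal protein genes was asked by comparing the libraries labelled Foxp1cKO with the controls. None of the 80 genes passed an adjusted p of 0.05 in either direction in edgeR (quasi-likelihood test, Benjamini-Hochberg adjusted), in which 26 of 17068 genes (0.152%) passed. None passed in DESeq2's Wald test either, in which 3.36% of the genes tested passed. Both fits held group alone. The study's own DESeq2 fit also held litter, and the study lists Rps3a1 among its downregulated genes. At an unadjusted p under 0.05 in edgeR there were 2 genes of the 80, Rps3a1 and Rps19bp1, which is 2.50%, against 13% of all genes. By fold change, 56 genes were above 0 and 24 below, with a median log2 fold change of 0.055 over the 80 and of -0.0044 over all genes. Fold changes ran from -0.51 for Rps3a1 to 0.52 for Rps27rt. Both Foxp1cKO libraries lay above all controls for 1 gene, Rps27rt, and below all controls for 2, Rps3a1 and Rps19bp1, where 11.5% of all genes lay above and 13.1% below.

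**Figure D1:**
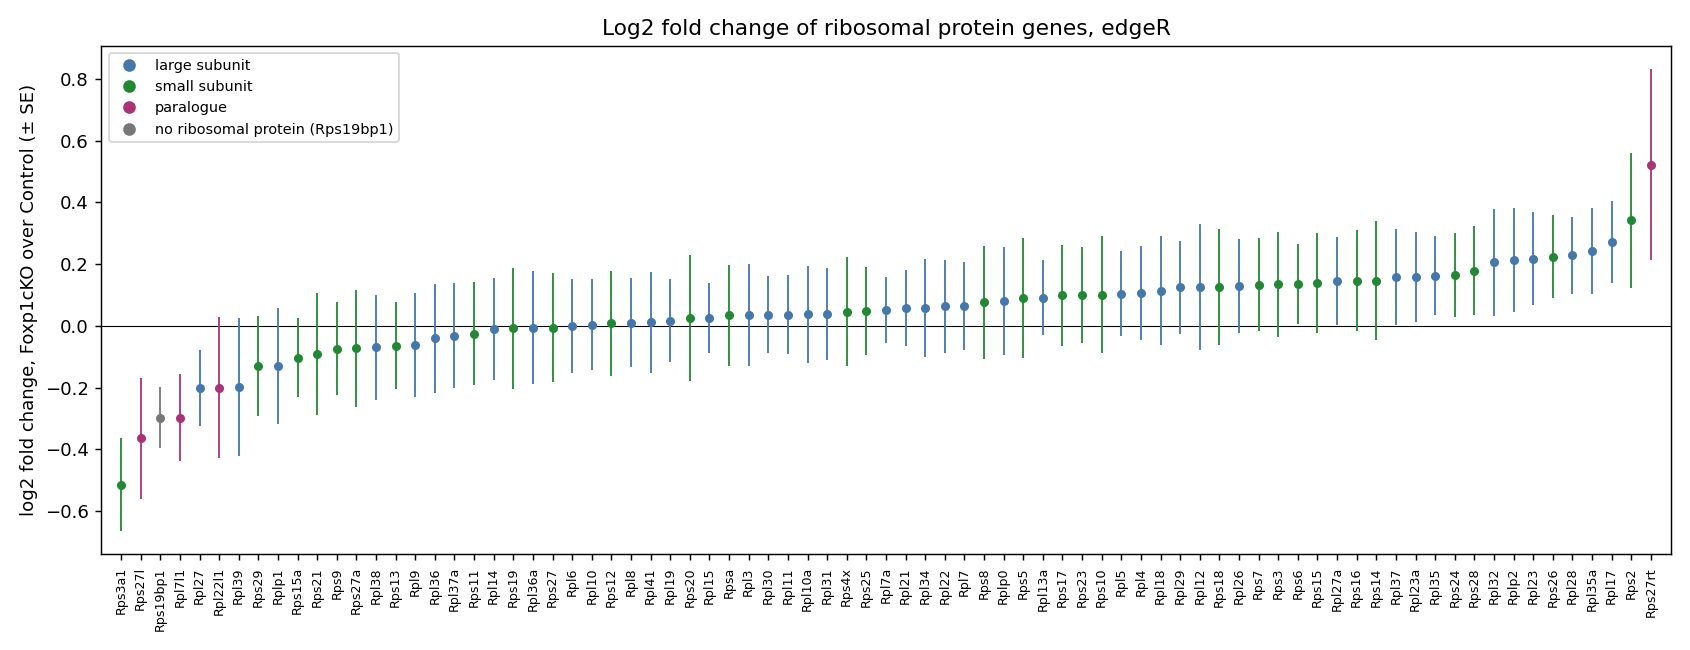
Log2 fold change of 79 of the genes between the libraries labelled Foxp1cKO (n = 2) and Control (n = 4) from edgeR, with bars for the standard error, ordered from the lowest to the highest and coloured by subunit. Most points lie within 0.2 of 0, Rps3a1 (-0.51) and Rps27rt (0.52) form the ends, and 3 of the 4 paralogues lie on the left.

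The median leaned on single libraries. It was -0.031 without control 3 and -0.13 without Foxp1cKO 2, so the sign was lost in either case, and it was 0.13 without control 4 and 0.21 without Foxp1cKO 1. The large-subunit genes had a median of 0.058 with 34 of 44 above 0, and the small-subunit genes a median of 0.076 with 21 of 31 above 0.

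The share of all counts that fell on the 80 genes was 2.48%, 2.30%, 1.93% and 2.80% in controls 1 to 4 and 2.22% and 2.81% in Foxp1cKO 1 and 2. The Foxp1cKO values lay inside the range of the controls or just past its upper end. The means were 2.38% ± 0.36 (SD, n = 4) and 2.52% ± 0.42 (SD, n = 2), and an exact two-sided permutation test over libraries gave p = 0.80, where the smallest p that 4 against 2 can give is 0.133. Without control 3 the difference of the means was -0.012 percentage points instead of 0.136, and without Foxp1cKO 2 it was -0.161. In bulk RNA, fewer cells with many ribosomal transcripts and fewer such transcripts per cell cannot be told apart.

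**Figure D2:**
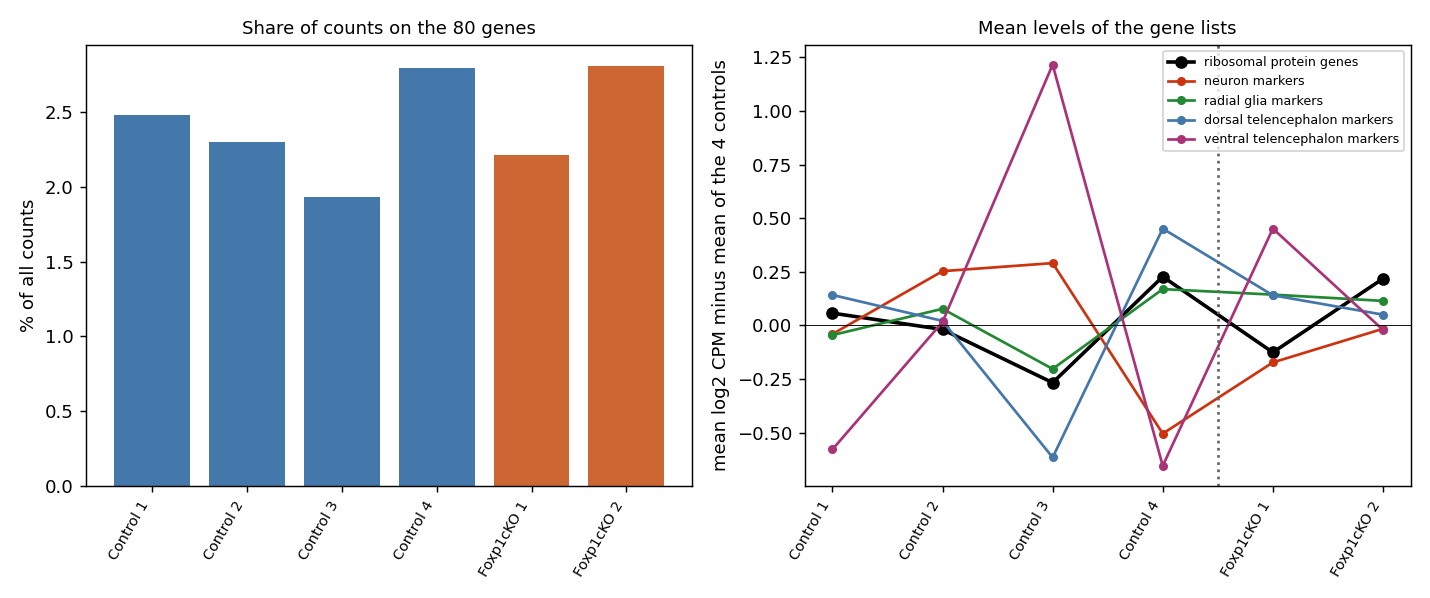
Left, percent of all counts on the 80 genes in each library (blue, Control; orange, Foxp1cKO). Right, mean log2 CPM of the ribosomal protein genes and of 4 marker lists in each library, minus the mean of the 4 controls. The ribosomal protein genes are lowest in control 3 and high in control 4 and Foxp1cKO 2, while the ventral telencephalon markers peak in control 3.

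The libraries differed more within the groups than the group means did, and the genes moved together. The group means of the genes' mean log2 CPM differed by 0.046, with an SD of 0.21 in controls and 0.24 in Foxp1cKO. Between single libraries of different groups the median gene differed by up to 0.50 log2 (Foxp1cKO 2 against control 3). Control 3 was the lowest control for 78 of the 80 genes and control 4 the highest for 79, where control 3 was the lowest control for 34.5% of all genes and control 4 the highest for 36.3%. The median gene was 0.49 log2 higher in control 4 than in control 3 and 0.34 higher in Foxp1cKO 2 than in Foxp1cKO 1. Against control 4, the median gene differed by 0.0088 in Foxp1cKO 2 and by -0.34 in Foxp1cKO 1. The result of a comparison of 1 library with 1 library therefore depended on the libraries chosen: Foxp1cKO 2 was above control 3 for 78 genes, and Foxp1cKO 1 was above control 4 for 1.

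Over the 6 libraries, the median Pearson r of log2 CPM among the 3160 pairs of genes was 0.90, and 72.3% of pairs were above 0.8. All points of a pair come from the same 6 libraries, so these correlations describe the libraries' shared level and carry no p. Among the large-subunit genes, Rpl22, Rpl11, which with Rpl5 and the 5S RNA can bind Mdm2, Rplp0 and Rpl7 each had r above 0.99 with the mean of the other genes, and 61 genes were above 0.9. Only 3 genes had r under 0.5: Rps3a1 (0.44), Rps27rt (0.27) and Rps19bp1 (-0.14). For Rps19bp1 the controls were nearly flat, at 16.7, 17.8, 17.3 and 17.04 CPM, while the ribosomal protein genes differed between those libraries.

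**Figure D3:**
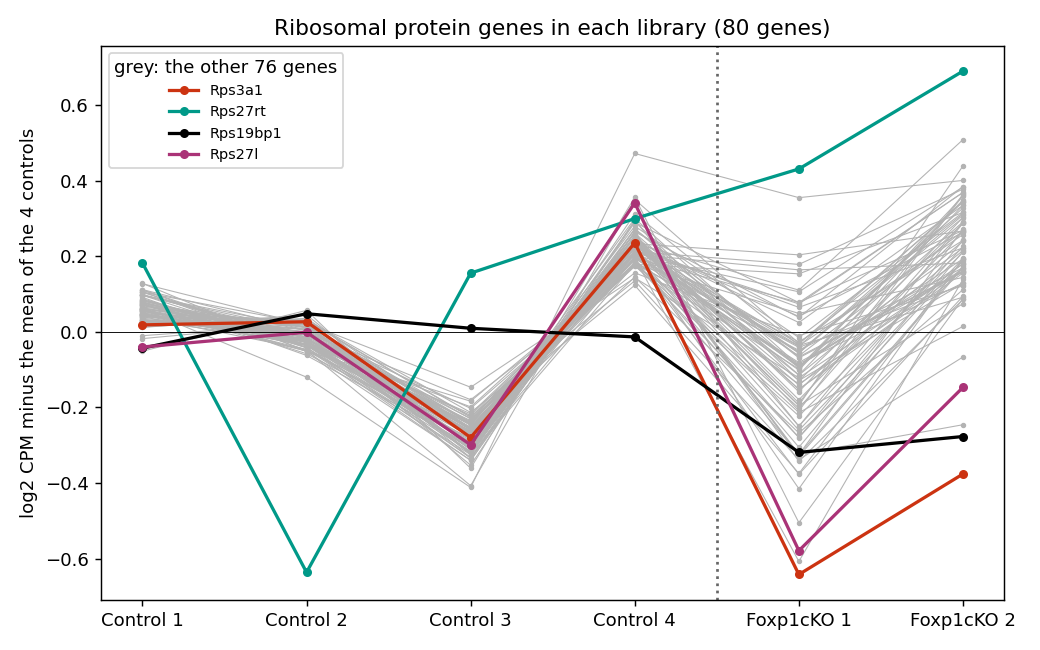
Log2 CPM of each of the 80 genes in each library, minus the gene's mean over the 4 controls, with 4 genes coloured and the other 76 in grey. The grey lines lie low together in control 3 and high together in control 4, and they fan out in the Foxp1cKO libraries. There Rps3a1 lies lowest and Rps27rt highest, and Rps27l lies on the low side with some grey lines below it.

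Marker lists moved with this shared level in part. Mean log2 CPM of the 80 genes was 7.89, 7.81, 7.56 and 8.06 in controls 1 to 4 and 7.70 and 8.05 in Foxp1cKO 1 and 2. In the same order, the dorsal telencephalon markers stood at 7.49, 7.37, 6.73, 7.80, 7.49 and 7.40, and the 6 neuron markers with a row at 8.96, 9.25, 9.29, 8.50, 8.83 and 8.99. Among the controls the dorsal markers had the same order of libraries as the ribosomal protein genes, with control 3 lowest and control 4 highest, and the neuron markers had the reverse order. In the Foxp1cKO pair neither held, since Foxp1cKO 2 was lower in dorsal markers and higher in neuron markers than Foxp1cKO 1 while its ribosomal protein genes were higher. Other lists varied. Meninges markers, for example, were lowest in control 3 and higher in Foxp1cKO 2 than in Foxp1cKO 1 (4.85 and 3.66). Intermediate progenitor markers were also higher in Foxp1cKO 2 (6.83 and 6.61), but among the controls they were lowest in control 4 (6.73). The part that cell composition had in the shared level was not tested.

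Levels per length were compared as CPM per kilobase of annotated transcript (RPKM), taking the median over the 6 libraries. They ran from 2.61 for Rps27rt to 746 for Rps12, with a median of 388 RPKM over the 80 genes, and 54 genes lay between 200 and 600. The median level was 340 RPKM for the large-subunit genes, 481 for the small-subunit genes and 71.2 for the paralogues. Differences in annotated transcript length enter these values: Rps20, at 77.8 RPKM, is annotated here with a transcript of 3706 bases, and any gene with near-identical copies can lose reads that map to more than one place.

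The 5 highest genes were Rps12, Rpl41, Rps9, and the stalk genes Rplp1 and Rplp0, whose products recruit translation factors. Rps12 stood at 733 ± 121 RPKM in controls (SD, n = 4) and 736 ± 120 in Foxp1cKO (SD, n = 2), and Rpl41, which encodes the smallest ribosomal protein with a coding sequence of 75 bases, at 749 ± 136 and 754 ± 47.2. Rps9 stood at 711 ± 86.3 and 675 ± 125, Rplp1 at 733 ± 128 and 670 ± 140, and Rplp0 at 714 ± 112 and 755 ± 153. These 5 neighbours in the order did not differ beyond their spread. At the low end, Rps27rt (2.27 ± 0.58 and 3.27 ± 0.41), Rps19bp1 (20.5 ± 0.55 and 16.7 ± 0.34) and Rpl13a (20.8 ± 2.22 and 22.2 ± 1.03) stood well below Rps27l (73.3 ± 13.6 and 56.9 ± 11.97) and Rpl7l1 (82.6 ± 12.4 and 67.2 ± 2.58). Rpl13a, whose product is a large-subunit protein that also acts in the GAIT complex, was thus listed at a transcript level far under those of the other large-subunit genes. The part that reads mapping to more than one place had in this value was not tested.

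**Figure D4:**
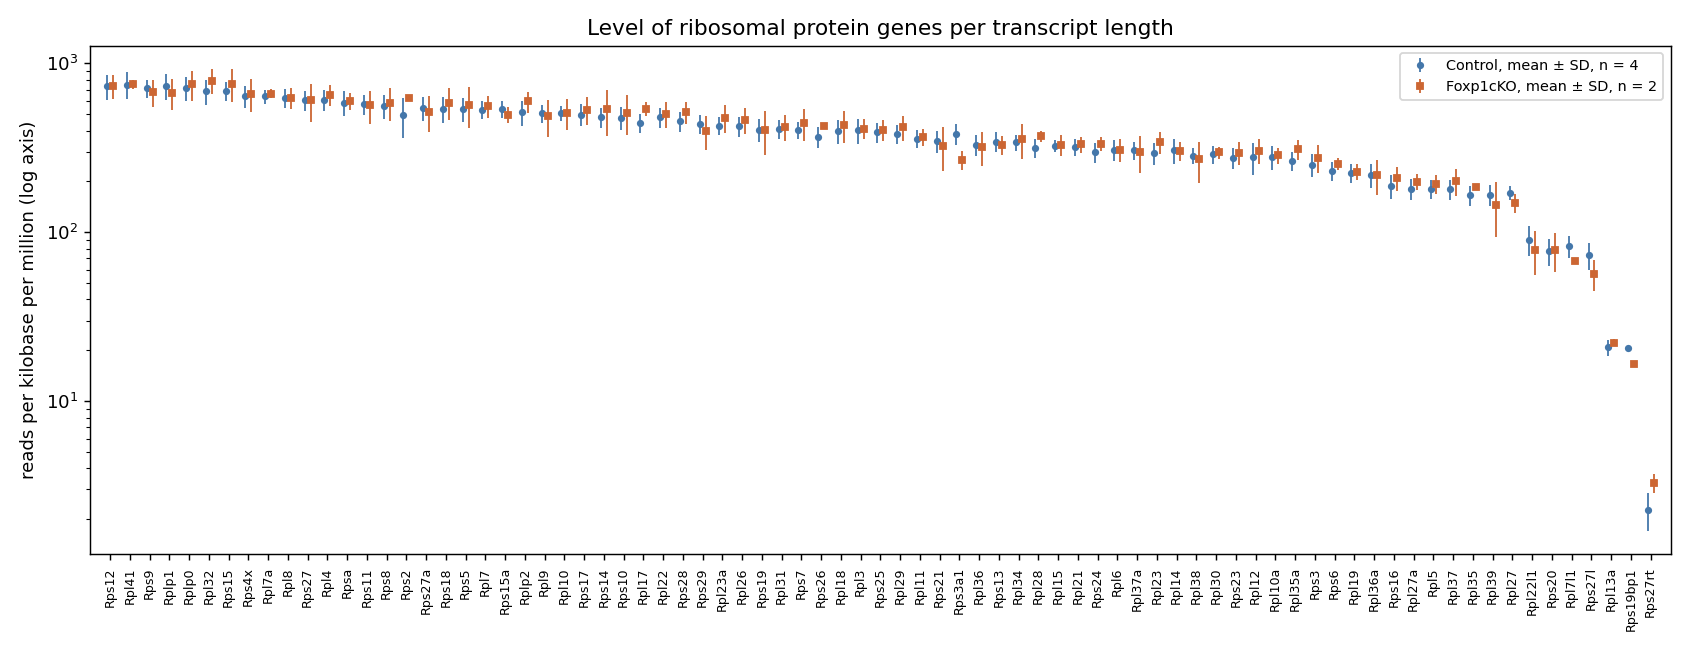
RPKM of 79 of the genes on a log axis, ordered by the median over all libraries, as mean ± SD of Control (blue circles, n = 4) and Foxp1cKO (orange squares, n = 2). The ranges of the groups overlap for most genes, from 746 at the left to 2.61 at the right, and the low end holds the paralogues, Rps19bp1, Rpl13a and Rps20.

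Rps3a1 encodes a small-subunit protein near the exit of the messenger RNA channel, and it had the lowest fold change of the 80. Its level was 376, 378, 305 and 436 CPM in controls 1 to 4 and 238 and 286 CPM in Foxp1cKO 1 and 2. Both Foxp1cKO libraries were below every control, including control 3, in which the other genes were low. The log2 fold change was -0.51 (SE 0.15, edgeR quasi-likelihood test, Benjamini-Hochberg adjusted p = 0.28), with an adjusted p of 0.054 in DESeq2's Wald test. Neither fit held litter, which the study's model did, and the study lists this gene as downregulated.

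Set against the mean of the 80 genes in each library, Rps3a1 kept within 0.05 log2 of its own control mean in each of the 4 controls (-0.039, 0.045, -0.013 and 0.0075) and stood at -0.52 and -0.59 in Foxp1cKO 1 and 2. With library sizes set to the summed counts of the 80 genes, an alternative chosen after the data were seen, its log2 fold change was -0.58 (SE 0.17, edgeR quasi-likelihood test, Benjamini-Hochberg adjusted p = 0.66). Leaving out each library in turn kept it below 0, between -0.67 and -0.39.

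Rps3a2 is a processed pseudogene on chromosome 14 that aligns to the whole 792 bases of the Rps3a1 coding sequence with 99.5% identity. It was higher in the Foxp1cKO libraries, and the study lists it among its upregulated genes. Its level was 1.57, 1.53, 1.61 and 1.60 CPM in the controls and 5.13 and 9.21 CPM in Foxp1cKO 1 and 2. It was among the 26 genes of the table that passed in edgeR (log2 fold change 2.19, SE 0.24, Benjamini-Hochberg adjusted p = 0.033). It also passed in DESeq2's Wald test (adjusted p = 9.3e-12). In edgeR's test with Benjamini-Hochberg adjustment it passed with DESeq2 size factors (adjusted p = 0.033) and without control 4 (0.044). It no longer passed in that test without control 1, 2 or 3 (adjusted p = 0.19, 0.15 and 0.076), with log2 fold changes between 2.17 and 2.18. Its log2 fold change was 1.68 without Foxp1cKO 2 and 2.55 without Foxp1cKO 1. With limma on the deposited variance-stabilised values, whose scale compresses low levels, its log2 difference was 1.21 (Benjamini-Hochberg adjusted p = 0.060).

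The copy differs from the parent at 4 positions of the coding sequence, counted from 1 at the A of the start codon: T216C, T534C, A645T and T668C. The stretches around the first and the third of these are shown because parent and copy differ within the coding sequence at such bases alone. Capitals mark the base that differs. Those of the copy lie at chr14:88123579-88123607 and chr14:88123150-88123178 of GRCm38, minus strand.

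Rps3a1, bases 202 to 230: gaagtgagccttgcTgatctacagaatga
Rps3a2, same bases: gaagtgagccttgcCgatctacagaatga
Rps3a1, bases 631 to 659: tttgttagaaaagtAaaaatgctgaagaa
Rps3a2, same bases: tttgttagaaaagtTaaaatgctgaagaa

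The difference in the copy was small beside that in the parent. All 3 pseudogene rows that align to Rps3a1 summed to 1.92, 1.74, 1.89 and 2.27 CPM in the controls and to 5.29 and 9.57 CPM in Foxp1cKO 1 and 2, which was 2.18% and 3.24% of parent and copies together. Parent and copies together stood at 377, 379, 307 and 439 CPM in the controls and at 243 and 295 CPM in Foxp1cKO. The summed level was therefore still below every control. Summing the counts of Rps3a1 and Rps3a2 before the fit gave a log2 fold change of -0.48 (edgeR quasi-likelihood test, Benjamini-Hochberg adjusted p = 0.29).

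Over the family, 101 pseudogene rows of the table aligned to the coding sequence of 58 of the 86 genes with at least 90% identity over at least 50% of its length, and 14 were identical to the parent over the aligned part. Together they held between 0.489% and 0.675% of the CPM of the 80 genes. Of the 101 rows, Rps3a2 alone passed in edgeR, 9 had an unadjusted p under 0.05, a smaller share than the 13% of all genes, and the median log2 fold change was 0.20, where that of all genes was -0.0044. Both Foxp1cKO libraries lay above all controls for 11 rows and below for 5, where 11.5% of all genes lay above and 13.1% below, so neither count exceeded that of all genes.

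Rps13 and Rps15a, small-subunit genes that both lie on chromosome 7, had copies that were high in Foxp1cKO 2 alone. Rps13-ps1, a copy on chromosome 8 with 99.6% identity over 453 bases, stood at 0.081, 0.064, 0.055 and 0.15 CPM in the controls, at 0 in Foxp1cKO 1 and at 19.0 CPM in Foxp1cKO 2. A count of 0 in Foxp1cKO 1 allows up to 0.060 CPM, so the libraries of the same group differed by far more than the controls did. The 5 copies of Rps15a summed to 0.76, 1.42, 0.92 and 1.23 CPM in the controls, to 0.91 CPM in Foxp1cKO 1 and to 15.2 CPM in Foxp1cKO 2. The 2 bases by which Rps13-ps1 departs from Rps13 are T411C and A429G. The stretch around the second is shown with the differing base in capitals, and lies at chr8:87048134-87048162, plus strand.

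Rps13, bases 415 to 443: tggaaatatgagtcAtccacagcctctgc
Rps13-ps1, same bases: tggaaatatgagtcGtccacagcctctgc

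The parents stayed within the range of the controls. Rps13 stood at 199.9, 204, 169.95 and 237 CPM in controls 1 to 4 and at 176 and 212 CPM in Foxp1cKO. Rps15a stood at 353, 339, 290.2 and 386 CPM in the controls and at 293 and 344 CPM in Foxp1cKO (log2 fold change -0.10, SE 0.13, edgeR quasi-likelihood test, Benjamini-Hochberg adjusted p = 0.77). Copies made up 8.33% of the summed level of Rps13 and 4.23% of that of Rps15a in Foxp1cKO 2, and at most 0.246% and 0.416% in the controls.

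**Figure D5:**
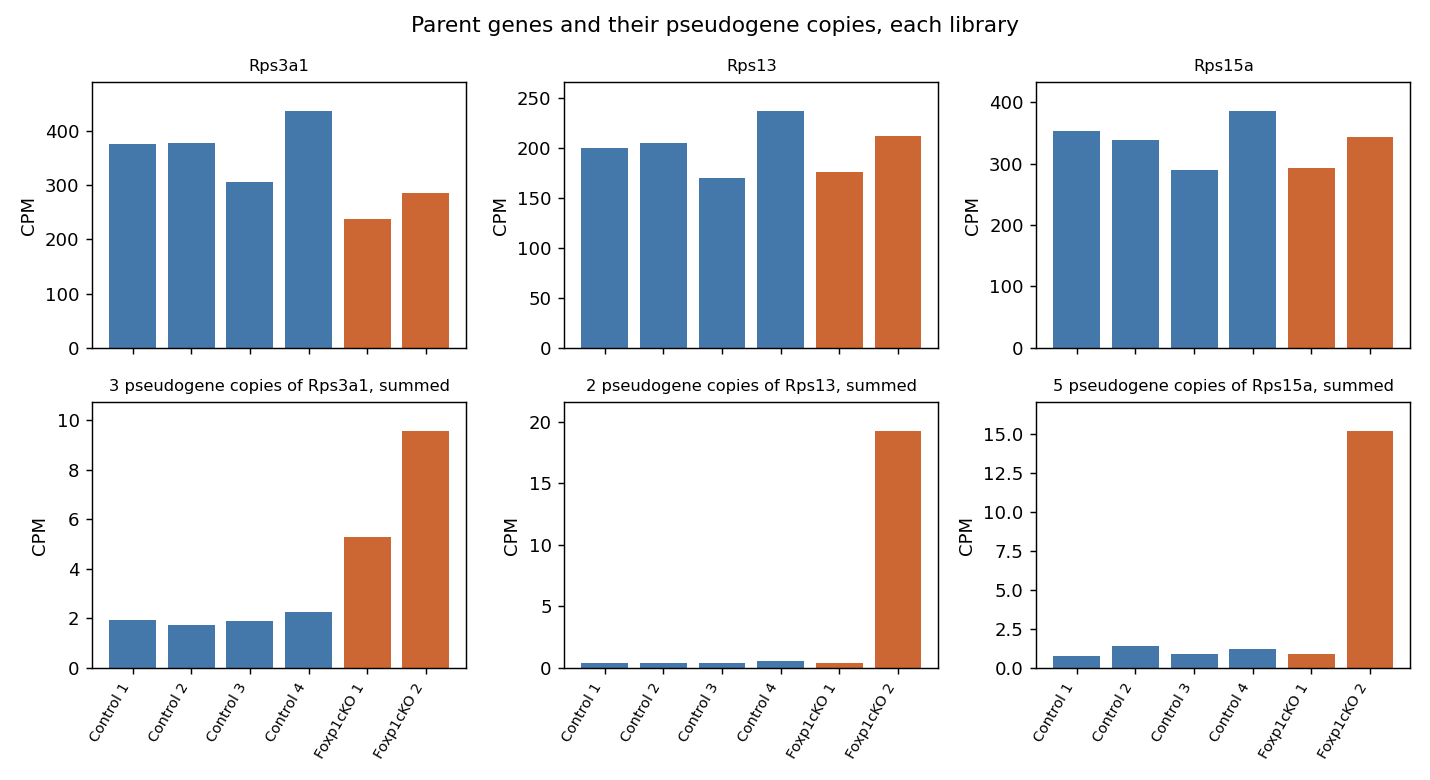
CPM of Rps3a1, Rps13 and Rps15a (top) and of their pseudogene copies summed (bottom) in each library, with bars from 0 and a scale of its own for each panel (blue, Control; orange, Foxp1cKO). Rps3a1 is lower and its copies are higher in both Foxp1cKO libraries, whereas the copies of Rps13 and Rps15a are high in Foxp1cKO 2 alone, at 19.3 and 15.2 CPM.

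The paralogues, which can replace or accompany a ribosomal protein in some cells, are given beside their partners. Rps27l, a target of p53 that resembles Rps27, stood at 35.1, 36.1, 29.4 and 45.8 CPM in the controls and at 24.2 and 32.6 CPM in Foxp1cKO, with a log2 fold change of -0.36 (SE 0.20, edgeR quasi-likelihood test, Benjamini-Hochberg adjusted p = 0.47). Rps27 itself stood at 219, 207, 173 and 241 CPM in the controls and at 172 and 247 CPM in Foxp1cKO. The ranges overlapped for both. Relative to the mean of the 80 genes, Rps27l was at -0.45 and -0.37 log2 in Foxp1cKO 1 and 2 and between -0.098 and 0.11 in the controls.

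Rps27rt, an intronless copy of Rps27 that the annotation counts as protein-coding, stood at 0.94, 0.53, 0.92 and 1.02 CPM in the controls and at 1.11 and 1.33 CPM in Foxp1cKO. Its groups did not overlap, but it is the least abundant of the 80 and its controls spread widely (log2 fold change 0.52, SE 0.31, edgeR quasi-likelihood test, Benjamini-Hochberg adjusted p = 0.51).

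Rpl7l1, a paralogue of Rpl7 that acts in ribosome assembly, stood at 112, 105, 88.5 and 128 CPM in the controls and at 85.6 and 90.4 CPM in Foxp1cKO (log2 fold change -0.30, SE 0.14, edgeR quasi-likelihood test, Benjamini-Hochberg adjusted p = 0.42). Rpl7 stood at 625, 620.3, 522, 713, 578 and 719 CPM in the same order of libraries, so the lower value of Rpl7l1 in Foxp1cKO 2 was not shared by Rpl7. Rpl22l1, which is known to be held down by Rpl22, stood at 47.5, 51.2, 38.3 and 63.0 CPM in the controls and at 34.7 and 52.3 CPM in Foxp1cKO, and Rpl22 at 231, 225, 189, 265, 209 and 267 CPM over the same libraries. The groups overlapped for both genes of this pair.

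Rps19bp1 was lower in both Foxp1cKO libraries, at 13.8 and 14.2 CPM, than in any control. Its log2 fold change was -0.30 (SE 0.099, edgeR quasi-likelihood test, Benjamini-Hochberg adjusted p = 0.31). Rps19, the ribosomal protein to which it binds and which is mutated in Diamond-Blackfan anaemia, stood at 268, 249.99, 208 and 301 CPM in the controls and at 203 and 307 CPM in Foxp1cKO, across and past the whole control range. Among the other pairs of the family, Rps4l, annotated as a pseudogene and so no member, stood at 20.0, 22.2, 17.7 and 20.0 CPM in the controls and at 16.1 and 16.0 CPM in Foxp1cKO, below every control, while its X-linked parent Rps4x stood at 624, 638, 500.25 and 736 CPM and at 546 and 744 CPM.

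Of the large-subunit genes at the low end, Rpl27 stood at 109, 108, 90.8 and 116 CPM in the controls and at 83.2 and 100.5 CPM in Foxp1cKO, with a log2 fold change of -0.20. Rpl39, which lines the exit tunnel of the large subunit, stood at 109, 103, 81.1 and 116 CPM in the controls and at 66.5 and 112 CPM in Foxp1cKO, with a log2 fold change of -0.20. The value of Rpl39 rested on Foxp1cKO 1, without which it was 0.13. Rps29 (-0.13), a zinc-binding protein of the small subunit, and Rplp1 (-0.13) complete the 10 lowest together with Rpl22l1 (-0.20) and Rps15a, and for each of these 4 the sign also turned without Foxp1cKO 1.

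The highest fold changes after that of Rps27rt included those of Rps2 (0.34) and Rpl17 (0.27). Rps2, which encodes a protein at the entry of the messenger RNA channel, stood at 501, 442, 361 and 666 CPM in the controls and at 615 and 634 CPM in Foxp1cKO, inside the wide range that control 4 set. Rpl17 stood at 357, 340.5, 288 and 398 CPM in the controls and at 389 and 446 CPM in Foxp1cKO. For both genes the groups overlapped only because of control 4, the control with the highest ribosomal protein levels.

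Another 6 of the 10 highest, Rpl35a (0.24), Rpl28 (0.23), Rps26 (0.22), Rpl23 (0.22), Rplp2 (0.21) and Rpl32 (0.21), all had groups that overlapped in CPM. For all of these but Rpl32 the overlap was again because of control 4 alone. Rps26, which contacts the messenger RNA upstream of the start codon, stood at 260.4, 242, 206 and 291 CPM in the controls and at 285 and 298 CPM in Foxp1cKO. Rplp2, the partner of Rplp1 in the stalk, stood at 217, 217, 169.85 and 262 CPM in the controls and at 226 and 276 CPM in Foxp1cKO. Rplp1 stood at 395, 349, 286 and 434 CPM in the controls and at 285 and 384 CPM in Foxp1cKO, so the partners, which bind as a dimer, had fold changes of opposite sign (-0.13 and 0.21) while the groups overlapped for both. Over the 10 highest, adjusted p ranged from 0.43 to 0.64 (edgeR quasi-likelihood test, Benjamini-Hochberg adjustment).

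Rps6, Rpsa, Rpl5 and Rpl11, genes with a function outside the ribosome, kept the shared profile. Rps6, the substrate of the Rps6 kinases, stood at 208, 198, 170.35 and 235 CPM in the controls and at 211 and 235 CPM in Foxp1cKO. Rpsa, also the laminin receptor precursor, stood at 985, 901, 744 and 1119.5 CPM in the controls and at 884 and 1035 CPM in Foxp1cKO. Rpl5 stood at 369, 375, 306 and 422 CPM and at 359 and 433 CPM, and Rpl11 at 307, 294, 255 and 340.35 CPM and at 281 and 332 CPM. In all 4 of these genes control 3 was the lowest library. Rpl3 stood between 438 and 661 CPM, Rpl10 between 347 and 468 CPM and Rpl36a between 83.6 and 124 CPM over all 6 libraries, with overlapping groups in each.

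When each library's mean over the 80 genes was removed, what stayed was the balance among the genes. On this scale the range over the 4 controls had a median of 0.082 log2 per gene. Both Foxp1cKO libraries lay above all controls for 21 genes and below for 14, and 45 overlapped. Under the same centring 5.18% of all genes lay above and 7.29% below. The shares are not alike in construction, since the centring takes the shared level out of these 80 genes and adds it to genes that do not share it. The 21 higher genes were 13 of 44 large-subunit genes, 7 of 31 small-subunit genes and Rps27rt. The 14 lower genes were 5 large-subunit genes, 6 small-subunit genes and the paralogues Rps27l, Rpl7l1 and Rpl22l1. Fitted with library sizes set to the summed counts of the 80 genes, none passed (edgeR quasi-likelihood test, Benjamini-Hochberg adjustment), and 2 had an unadjusted p under 0.05, while in the same fit 0.223% of all genes passed and 4.92% had an unadjusted p under 0.05.

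Among ribosomal proteins outside the name rule, Fau stood at 189.5, 185, 163 and 211 CPM in the controls and at 161 and 243 CPM in Foxp1cKO, and Rack1 at 744, 693, 575 and 813 CPM and at 626 and 866 CPM. Both genes had the profile of the family, lowest in control 3 among the controls and higher in Foxp1cKO 2 than in Foxp1cKO 1.

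Other transcripts of the translation machinery were described from lists chosen by function. Of 18 translation factors that carry a terminal oligopyrimidine tract, none passed in edgeR or DESeq2, 13 were above 0, and the median log2 fold change was 0.035. Eef2, the elongation factor that moves the ribosome along the messenger RNA, stood at 2382, 2364, 2109.8 and 2216 CPM in the controls and at 2637 and 2849 CPM in Foxp1cKO. Eif4b, which assists the eIF4A helicase, stood at 453, 432, 382 and 479 CPM in the controls and at 521 and 511 CPM in Foxp1cKO. Both lay above all controls with an unadjusted p under 0.05 (adjusted p = 0.31 and 0.38, edgeR, Benjamini-Hochberg adjustment). These 2 of 18 factors are a share near that of all genes, of which 13% had an unadjusted p under 0.05 and 11.5% lay above all controls.

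Of 12 regulators of ribosome production and translation, none passed in edgeR or DESeq2 and none had an unadjusted p under 0.05 in edgeR, against 13% of all genes. Mycn, a transcription factor known to raise ribosomal protein genes in progenitors, stood at 104, 91.9, 77.7 and 128 CPM in the controls and at 125 and 135 CPM in Foxp1cKO. Eif4ebp1, the inhibitor of cap-dependent translation that mTOR phosphorylates, stood at 6.30, 4.33, 3.28 and 8.60 CPM in the controls and at 9.74 and 10.01 CPM in Foxp1cKO, and Larp1, which binds the oligopyrimidine tract, at 161, 162, 153 and 171 CPM and at 187 and 174 CPM. Both Foxp1cKO libraries were above all controls in 3 of the 12, these 2 and Max, the dimerisation partner of the Myc proteins, where 11.5% of all genes lay above.

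The 75 mitochondrial ribosomal protein genes with a row, which serve the separate ribosome of the mitochondrion, had a median log2 fold change of -0.18, and 65 of 75 were below 0. None passed in edgeR's test with Benjamini-Hochberg adjustment, 19 had an unadjusted p under 0.05 (25.3%, against 13% of all genes), and 3 passed in DESeq2's Wald test, a share near the 3.36% of all genes. Those 3 were Mrps23, Mrpl11 and Mrpl20. Mrpl20 stood at 41.8, 40.7, 41.1 and 41.8 CPM in the controls and at 32.3 and 34.6 CPM in Foxp1cKO. Both Foxp1cKO libraries lay below all controls for 35 of the 75 genes, against 13.1% of all genes, where the cytosolic genes had 2 of 80. Whether the fold changes of the cytosolic and mitochondrial genes differ as sets was not tested.

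Marker lists of other cells differed in their relation to the groups. In Foxp1cKO the pericyte list lay above every control and the microglia list barely so, while the red cell, endothelial and meninges lists overlapped with the controls. Of 6 red cell markers (globins and Alas2), 5 were above 0, and their mean stood at 6.60, 6.03, 6.09 and 7.18 log2 CPM in the controls and at 7.17 and 7.34 in Foxp1cKO. The 4 pericyte markers stood at 3.51, 3.49, 3.23 and 3.11 log2 CPM in the controls and at 3.75 and 3.93 in Foxp1cKO. Microglia markers reached at most 1.67 log2 CPM in the controls and stood at 1.85 and 1.68 in Foxp1cKO. By summed CPM the microglia markers overlapped, at 23.3 in control 1 against 21.5 in each Foxp1cKO library. Endothelial markers stood between 4.25 and 4.84 in the controls and at 4.40 and 4.74 in Foxp1cKO. Meninges markers stood between 2.92 and 5.66 in the controls and at 3.66 and 4.85 in Foxp1cKO. The part of such cells in the levels of the ribosomal protein genes and of their copies was not tested.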

How the data were processed

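Counts were deposited by the authors for 17068 genes in 6 libraries (4 Control, 2 Foxp1cKO). RNA was prepared with a stranded TruSeq kit and, per the study's methods, reads were aligned with STAR to mm10 and counted with HTSeq (0.9.1, union mode, uniquely mapped reads), and genes with few counts were removed. The strand setting of the counting is not given in the sources used here. A second deposited table held variance-stabilised values on a log2 scale, made by the authors with DESeq2 (1.30.1), and served only as an alternative. The counts were fitted here with edgeR (4.0.16): TMM scaling, quasi-likelihood test, Benjamini-Hochberg adjustment over all genes, threshold 0.05, group alone as the term, because litter, which the study's model held, is not in the labels. CPM are TMM-scaled, and log2 CPM have a prior count of 2. Alternatives were DESeq2 (1.42.0), limma (3.58.1), other scalings and filters, and each library left out. Pseudogene copies were found with blastn (2.17.0). The fit was tested on simulated data. A gene without a row may have been removed by that filter. Depth of 50076008 to 78346979 counts makes counting error small for most of the 80 genes (median 17820 counts).

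The genes and lists were chosen with earlier results of these data known. Text names every gene past the threshold, the 10 highest and 10 lowest fold changes with at least 10 counts, set paralogue pairs, stalk and extraribosomal genes, the 5 highest and 5 lowest by RPKM, and Rps19bp1. Rps13 with the copies, Eef2, Eif4b and other listed genes, Rps4l's level and the mitochondrial examples were named after their values were seen. Some genes that these choices would name are not reported here.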

Additional observations from a re-analysis of the deposited data

Results flagged for a closer look

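Among 44 sets of 4 control values tested for 1 value far from the others, 2 passed the 95% limit of Dixon's test. Both were pseudogene rows added to the sets outside the naming choices, so their count cannot be set against chance. Gm11942, a pseudogene copy of Rplp1, stood at 2.64 CPM in control 2, far above the other controls. Rps15a-ps8, a copy of Rps15a, had 0.016 CPM in control 2 and no count in the other controls. When all other values are equal, Dixon's ratio is 1 for any value, so this pass was fixed in advance.

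Pseudogene rows lie outside the comparison of the 80 genes. In 6 of the 101 rows the highest Foxp1cKO library exceeded the highest control by more than 3 times, in each case in Foxp1cKO 2: Rps13-ps1 (19.0 CPM), Rps15a-ps7 (9.70 CPM), Rps3a2 (9.21 CPM), Rps15a-ps4 (3.18 CPM), Rps15a-ps8 (1.33 CPM) and Rps15a-ps3 (0.62 CPM). These rows are copies of only 3 parents, and Rps3a2 was the one row of the 6 that was also high in Foxp1cKO 1. How many of all genes meet the same rule was not counted, so the 6 have no background share. Rows far lower in Foxp1cKO were not sought. Rps15a-ps8 stood at 0 CPM in Foxp1cKO 1 and in controls 1, 3 and 4, so its row rests on Foxp1cKO 2.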

How the results depend on the processing

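The count of 0 ribosomal protein genes past the threshold held under the 6 other tests, scalings and filters. It also held with Rps3a1 summed with Rps3a2 and without each control in turn. With the replicate number (1 and 2 of both groups) as a block, 0 of the 80 and 1 of all genes passed (63 of all genes in the same 4 libraries with no block). Rps3a2 was no longer past the threshold under the block (adjusted p = 0.20, edgeR). Same-numbered libraries did not deviate together (r = -0.12 over genes), so the numbers were not taken as pairs. With the numbers crossed, chosen after the data were seen, 2 of the 80 and 1252 of all genes passed in edgeR. Restricting the list to the 70 genes with an equal versioned identifier gave 0 calls and a median of 0.047. The median was 0.040 under the replicate block. With single libraries left out it ranged from -0.13 to 0.21, and the difference in share from -0.16 to 0.43 percentage points. Of 20 named genes and Rps3a2, 5 changed sign, each without Foxp1cKO 1: over the libraries left out, Rpl22l1 ranged from -0.54 to 0.065, Rpl39 from -0.64 to 0.13, Rps29 from -0.40 to 0.085, Rplp1 from -0.38 to 0.068 and Rps15a from -0.24 to 0.0067. Among all genes, 26 passed in edgeR and 507 in DESeq2. Near-identical copies limit all values, since reads that fit parent and copy equally were not counted.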
